A study of Mus musculus with 2 samples.

Results

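The BTG and TOB genes encode a small family of antiproliferative proteins, and 5 of them, Btg1, Btg2, Btg3, Tob1 and Tob2, are described here among the 21937 genes of the deposited table. They were taken by gene symbol, and the family was selected on its deposited levels and fold changes of ICRF-193 over DMSO, so these values, and any p given beside them, are a description and no test. The proteins share a conserved N-terminal domain that binds the deadenylase subunits CNOT7 and CNOT8. Through this contact they bring the CCR4-NOT complex to messenger RNAs, whose poly(A) tails are then shortened, and raised levels of BTG or TOB proteins are known to slow entry into the cell cycle. Btg2 is a classical target of the tumour suppressor p53 and an immediate early gene. Btg1 is its closest relative, and Tob1 and Tob2 carry a longer C-terminal part that also binds the poly(A)-binding protein PABPC1.

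The study sequenced messenger RNA of wild-type mouse embryonic stem cells of the 129Sv-C57Bl/6 strain, grown without feeder cells. One group was treated with 500 nM ICRF-193, a catalytic inhibitor of topoisomerase II, and the control group with its solvent DMSO, both for 16 h from 32 h after seeding. Each group held 3 libraries, which the deposited table merges into a mean per group, in normalised reads, that is, read numbers scaled by each library's size factor. The whole reads of each library were worked back from the digits of these means and are called libraries A, B and C of each group by decreasing size factor, letters that carry no pairing. The labels do not say that the replicates came from separate cultures, so the spread between libraries may be technical.

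Libraries also differed within the groups. Over the genes that could be worked back, a library held from 25241511 to 29019472 reads after ICRF-193 and from 28241741 to 39508574 reads after DMSO. All 10 stem cell markers examined had reads, and the mean of all 10 was lower after ICRF-193, at 0.504 to 0.761 of the DMSO mean. The authors' deposited table called 2 of them, Zfp42 and Lin28a, lower, where 1.26% of 18759 genes with reads were called lower. Pou5f1, the gene of OCT4, was at 32352 normalised reads after ICRF-193 and 42678 after DMSO, Zfp42 at 4111 and 8155, and Lin28a at 12134 and 21261. Library A of each group stood apart. The summed level of 8 fibroblast markers was 20399, 3152 and 2506 normalised reads in ICRF-193 libraries A, B and C and 17884, 1807 and 1782 in DMSO libraries A, B and C, so library A was the highest in both groups. Lum was the lowest of the 8, at 0.335 normalised reads after ICRF-193 and 0.331 after DMSO. The 5 trophectoderm markers summed to 20571 to 32376 normalised reads after ICRF-193 against 14104 to 17166 after DMSO. Most of that sum came from Krt8, with means of 9332 after ICRF-193 and 5759 after DMSO, and Krt18, at 16626 and 9751. Cdx2 was at 219 and 115, Eomes at 344 and 169, and Elf5 was low, at 8.74 and 7.60. The 4 mesoderm markers summed to 448 to 729.8 after ICRF-193 against 277 to 373 after DMSO, with Eomes counted in both lists. The 6 endoderm markers summed to between 1490 and 4038 after ICRF-193 and between 869 and 3970 after DMSO, and the 4 neural markers to 8246 to 10462 and 7094 to 8912. Within the neural list Tubb3 and Nes made up most of the sum and were higher after ICRF-193, whereas Pax6, at 180 normalised reads after ICRF-193 and 516 after DMSO, and Sox1, at 75.1 and 170.1, were lower. The part of these differences in the results below was not tested, and a change in the share of cells of a type cannot be told apart from a change in RNA per cell.

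Of the 5 genes, Btg2 and Tob1 rose after ICRF-193, Btg1 was higher without passing the authors' test, Tob2 differed little, and Btg3 had almost no reads. Btg2 was 4.41-fold higher, far more than the 1.73-fold of Tob1 and the 1.63-fold of Btg1. With a threshold of 0.05 on the adjusted p of the authors' deposited table, 2 of the 5 genes were called higher and 0 lower, where 5.97% of 18759 genes with reads were called higher and 1.26% lower. For lower levels that table held 0 members at an unadjusted p under 0.05, and limma-voom called 0 lower. The share of all genes under the unadjusted threshold was not worked out. Because the genes were chosen with this comparison known, nothing is read from their counts against the shares of all genes.

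Btg2 encodes the family member that p53 is best known to induce. It stood at 7812, 9008 and 9817 normalised reads in ICRF-193 libraries A, B and C, against 2443, 1730.1 and 1874 in DMSO libraries A, B and C. The lowest ICRF-193 library was 3.20 times the highest DMSO library, so the groups were far apart. The means were 8879 ± 1009 after ICRF-193 and 2016 ± 377 after DMSO (SD, n = 3), a log2 fold change of 2.14, with an adjusted p of 2.12e-14 in the authors' deposited table. These levels rest on 7783 to 8748 whole reads per ICRF-193 library and 1734 to 3069 per DMSO library, whose counting error alone would give a coefficient of variation of 1.09% and 2.22%. The observed coefficients of variation were 11.4% and 18.7%. Library A lay below B and C after ICRF-193, at 0.830 of their mean, and above them after DMSO, at 1.36 times their mean. Btg2 was thus 3.20-fold higher between the libraries A and 5.22-fold higher between the means of B and C. Among the 11868 genes with a mean of at least 100 normalised reads, 82 (0.691%) had a larger log2 fold change.

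Tob1 encodes a TOB protein that, besides its role in deadenylation, is known to restrain signalling through SMAD transcription factors. It stood at 1923, 1951 and 2290.4 normalised reads in ICRF-193 libraries A, B and C, against 1094, 1218 and 1244 in DMSO libraries A, B and C. The groups did not overlap, with the lowest ICRF-193 library 1.55 times the highest DMSO library. The means were 2055 ± 204 and 1186 ± 79.9 (ICRF-193 and DMSO; SD, n = 3), and the log2 fold change was 0.79, with an adjusted p of 0.0211 in the authors' deposited table. Unlike Btg2, Tob1 had nearly the same ratio in both kinds of library, 1.76 between the libraries A and 1.72 between the means of B and C. A larger log2 fold change was found for 823 of the 11868 genes (6.93%).

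Btg1 encodes a close relative of BTG2 that is abundant in resting cells and known as a target of FOXO3. Its levels were 1412, 1213 and 1323 normalised reads in ICRF-193 libraries A, B and C and 889.9, 819 and 719.7 in DMSO libraries A, B and C. All ICRF-193 libraries lay above all DMSO libraries, by 1.36 times at the closest. The means were 1316 ± 99.8 after ICRF-193 and 809.7 ± 85.5 after DMSO (SD, n = 3), a log2 fold change of 0.70. In the authors' deposited table its adjusted p was 0.0688, just past the threshold, while limma-voom on the reads per library gave an adjusted p of 0.0162. The ratio was 1.59 between the libraries A and 1.65 between the means of B and C.

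Tob2, the close relative of Tob1, differed little between the groups. Its levels were 1256, 1167 and 1157 normalised reads in ICRF-193 libraries A, B and C and 1119.9, 1054 and 1045 in DMSO libraries A, B and C. The groups did not overlap, but the lowest ICRF-193 library was only 1.03 times the highest DMSO library. The means were 1193 ± 54.2 after ICRF-193 and 1073 ± 41.0 after DMSO (SD, n = 3), which is a log2 fold change of 0.15, with an adjusted p of 0.903 in the authors' deposited table. The coefficient of variation between libraries was 4.54% after ICRF-193 and 3.82% after DMSO, against the 2.98% and 2.99% that counting error alone would give. A total of 4 of the 5 genes thus had non-overlapping groups with ICRF-193 higher, where this held for 15.0% of 11729 genes with a mean of at least 100 normalised reads.

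**Figure D1:**
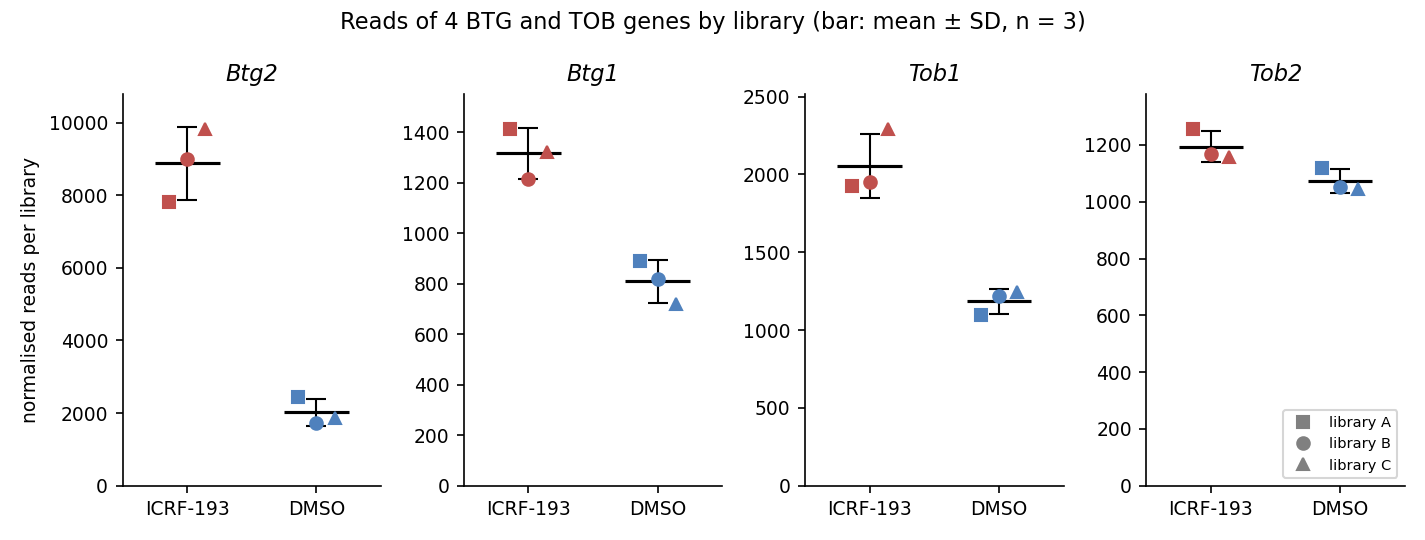
Normalised reads of Btg2, Btg1, Tob1 and Tob2 in each library (vertical axis from 0), with ICRF-193 left of DMSO; squares, circles and triangles are libraries A, B and C, and the bar is the mean with its SD (n = 3). The ICRF-193 libraries of Btg2 sit between 7812 and 9817, all far above the DMSO libraries, whereas those of Tob2 come within 1.03 times of the highest DMSO library.

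Set among all well-measured genes, Btg2 lay in the far upper tail, with Tob1 and Btg1 less far out. The family was selected on these fold changes, so their places are a description only. The median log2 fold change of the 11868 genes was -0.10, with the middle 50% between -0.30 and 0.18. Btg1, at 0.70, had 1007 genes (8.49%) above it, and Tob2, at 0.15, had 3212 (27.1%).

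**Figure D2:**
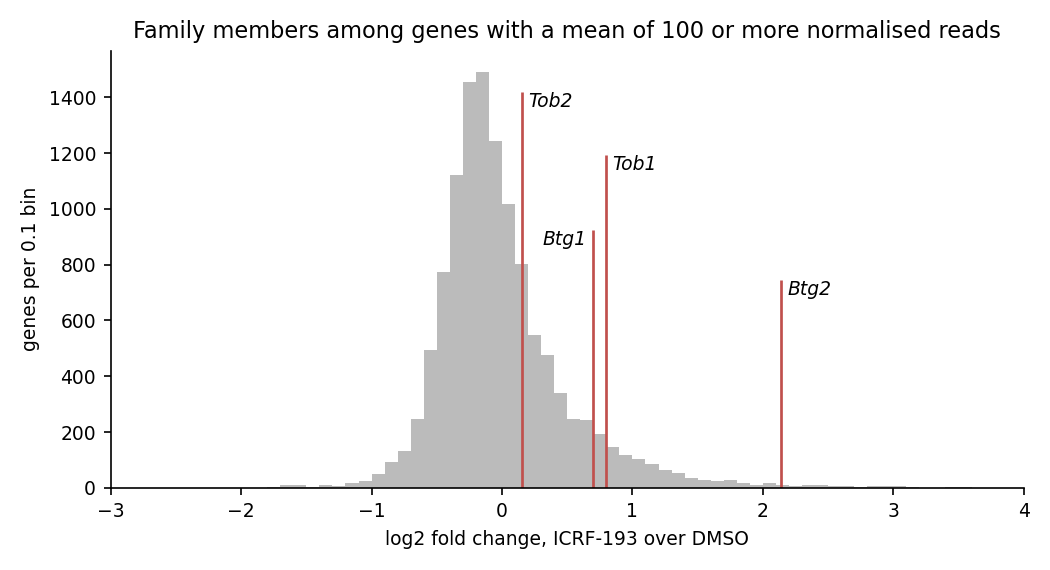
Number of genes (vertical axis) by log2 fold change of ICRF-193 over DMSO (horizontal axis, bins of 0.1) among the 11868 genes with a mean of at least 100 normalised reads, with red lines at the 4 measurable members. Tob2 at 0.15 lies in the body of the distribution, Btg1 at 0.70 and Tob1 at 0.79 on its right shoulder, and Btg2 at 2.14 in the far tail.

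Btg3 encodes a member known to be induced by p53 in human cells, where its protein also binds the transcription factor E2F1. Only 2 of its reads were counted over the 3 ICRF-193 libraries and 1 over the 3 DMSO libraries, at or under the 3 reads taken as the floor, so no fold is given. This low count need not be a low level. The Btg3 messenger RNA has a processed copy, the pseudogene Gm7334 on chromosome 17, of which 756 bases matched positions 217 to 972 of the 1414-base Btg3 transcript with 100% identity. That match covers 53.5% of the transcript, and reads from the rest were not examined separately. Whether the copy bears on the low count was not tested. Gm7334 is itself listed at 0 in both groups. How reads that match both places were counted is not given in the sources used here, and the level of Btg3 in these cells is therefore uncertain. Btg3 also shares 695 exonic bases with Cxadr on the opposite strand in the GENCODE annotation, and Cxadr stood at 1703 normalised reads after ICRF-193 and 1815 after DMSO. Btg4, the remaining member of the family, known for clearing maternal messenger RNAs in the egg, had 0 reads in all 6 libraries; 3 reads over a group would correspond to a mean of 1.12 normalised reads after ICRF-193 and 1.08 after DMSO.

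Btg1 also has copies elsewhere, with shorter matching stretches. Of the 5001-base Btg1 transcript, 312 bases matched the pseudogene Gm14519 with 98.7% identity, and 628 bases matched Btg1-ps2 with 87.4% identity. No annotated transcript of another locus matched Btg2, Tob1 or Tob2 at 85% identity or more and an E-value of at most 1e-20. Tob2 overlaps the antisense gene Gm49476 over 289 exonic bases, and without stated strand its reads and those of the antisense gene cannot be told apart.

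Among the measurable members Btg2 dominated, and more so after ICRF-193. The shares and sums below count Btg3 at its few reads, although its level is uncertain, so they describe the measurable members only. Between genes, levels are compared per kilobase of the annotated transcript with the longest coding part. The place of Btg1 and Tob2 depends on that choice. On this scale the order after ICRF-193 was Btg2 at 3237 normalised reads per kilobase, Tob1 at 898, Tob2 at 287 and Btg1 at 263. After DMSO the order was the same, with Btg2 at 735, Tob1 at 518, Tob2 at 258 and Btg1 at 162. Tob2 and Btg1 overlapped after ICRF-193, at 279 to 303 against 243 to 282 per kilobase, and no other neighbours in the order overlapped in either group. Per kilobase of all annotated exons, a length chosen after seeing the data, Btg2 and Tob1 kept their levels, but Btg1 stood above Tob2 after ICRF-193, at 230 to 268 against 174 to 188, and overlapped it after DMSO, at 136 to 169 against 157 to 168. On the transcript scale Btg2 made up 66.6% to 70.5% of the family's reads per kilobase in the ICRF-193 libraries and 39.9% to 49.0% in the DMSO libraries. Tob1 accounted for 18.3% to 19.7% after ICRF-193 and 26.3% to 33.7% after DMSO, although its own level was higher after ICRF-193. In plain normalised reads the family summed to 13445 ± 1096 after ICRF-193 and 5084 ± 403 after DMSO (SD, n = 3), a ratio of 2.64. Btg2 supplied 82.1% of that difference, and without Btg2 the sums were 4565 ± 220.5 and 3068 ± 52.2, a ratio of 1.49.

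**Figure D3:**
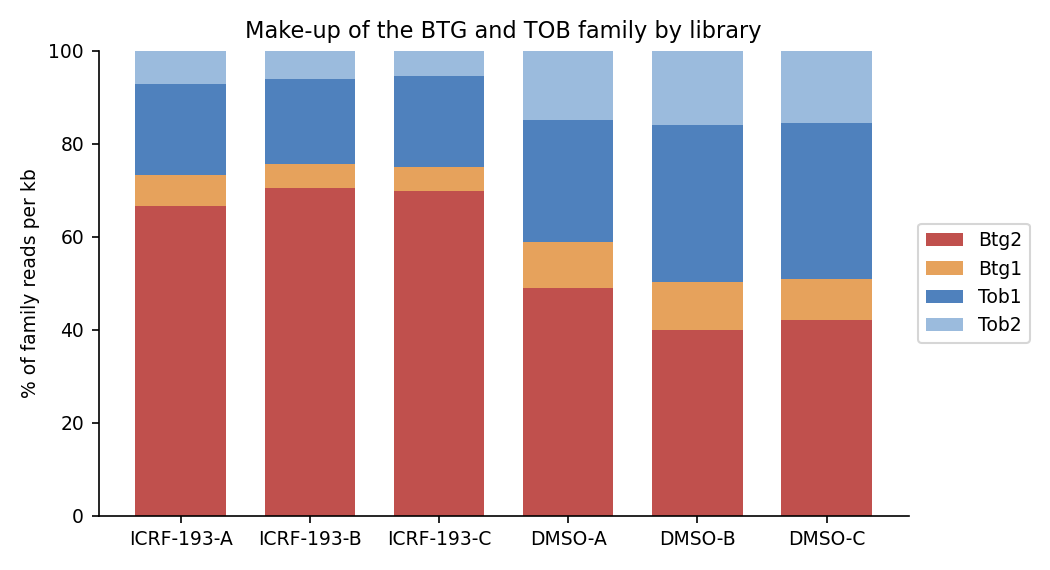
Share of each member in the family's normalised reads per kilobase (vertical axis, percent) in each library, with the ICRF-193 libraries left of the DMSO libraries. The few reads counted for Btg3, whose level is uncertain, are too low to be seen. Btg2 takes 66.6% to 70.5% in the ICRF-193 libraries and 39.9% to 49.0% in the DMSO libraries.

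The measurable members share a compact gene structure. Btg1, Btg2, Tob1 and Tob2 have 2 exons each in the GENCODE annotation, whereas Btg3 has 5, and 10.1% of 15989 protein-coding genes with reads have at most 2. Their genes span 3951 bases (Btg2), 4042 (Tob1), 5804 (Btg1) and 10525 (Tob2), against 44556 for Btg3 and a median of 22099 over those genes. In coding sequence the closest pairs were Tob1 with Tob2, 69.1% identical over 984 aligned bases, and Btg1 with Btg2, 68.7% identical over 473, while the remaining pairs were 57.3% to 65.1% identical. Within each pair the fold changes were unlike, with Tob1 and Tob2 at log2 fold changes of 0.79 and 0.15 and Btg1 and Btg2 at 0.70 and 2.14. The motif ATTTA is the core of AU-rich elements that mark short-lived messenger RNAs. It occurs in the 3′ untranslated region of all 5 (11 times in Btg1, 5 in Btg2, 4 in Btg3 and Tob2, and 3 in Tob1), and in 63.1% of 15683 genes with such a region. The longer form TTATTTA occurs 2 times each in Btg3 and Tob2, 0 times in Btg1, Btg2 and Tob1, and in 23.1% of those genes. The region is 4166 bases long in Btg1, 2457 in Tob2, 2199 in Btg2, 767 in Tob1 and 439 in Btg3, against a median of 875.

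The promoters of the 4 measurable genes are shown as a description. Whether any motif in them bears on the fold changes was not tested. Each sequence covers 250 bases before to 50 bases after the start site, from RefSeq on GRCm38.p6, 5′ to 3′ on the strand of the gene. Btg2 lies at chr1:134079106-134079405 (minus strand), Btg1 at chr10:96616751-96617050 (plus), Tob1 at chr11:94211204-94211503 (plus) and Tob2 at chr15:81858277-81858576 (minus). Capitals mark the TATA box TATAAA, the CCAAT box, the cyclic AMP response element TGACGTCA with its core ACGTCA, and the forkhead site GTAAACA, all on either strand.
Btg2: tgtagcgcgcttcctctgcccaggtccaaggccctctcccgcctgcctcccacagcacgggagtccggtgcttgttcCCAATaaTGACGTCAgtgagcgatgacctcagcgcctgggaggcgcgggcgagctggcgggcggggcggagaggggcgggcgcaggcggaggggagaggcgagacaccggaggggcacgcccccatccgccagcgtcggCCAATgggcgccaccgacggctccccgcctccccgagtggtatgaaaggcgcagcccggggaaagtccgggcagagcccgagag
Btg1: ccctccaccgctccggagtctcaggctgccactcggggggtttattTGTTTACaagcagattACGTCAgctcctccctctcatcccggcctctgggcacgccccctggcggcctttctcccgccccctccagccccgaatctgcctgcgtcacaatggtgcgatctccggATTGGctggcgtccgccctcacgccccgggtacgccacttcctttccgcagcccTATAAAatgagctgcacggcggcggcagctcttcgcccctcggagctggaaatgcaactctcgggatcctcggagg
Tob1: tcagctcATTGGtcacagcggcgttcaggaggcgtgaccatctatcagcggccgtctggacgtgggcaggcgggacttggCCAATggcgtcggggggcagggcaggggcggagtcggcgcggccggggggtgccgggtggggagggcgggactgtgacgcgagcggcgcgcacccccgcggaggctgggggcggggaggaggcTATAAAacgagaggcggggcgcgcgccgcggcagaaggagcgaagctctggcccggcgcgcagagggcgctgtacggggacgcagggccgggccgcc
Tob2: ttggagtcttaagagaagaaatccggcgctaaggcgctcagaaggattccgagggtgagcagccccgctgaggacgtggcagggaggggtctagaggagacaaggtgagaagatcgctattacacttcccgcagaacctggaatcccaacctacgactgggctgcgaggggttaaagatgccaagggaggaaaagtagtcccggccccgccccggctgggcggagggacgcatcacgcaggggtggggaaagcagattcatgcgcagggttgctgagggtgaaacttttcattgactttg

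Btg2 holds the full element TGACGTCA at position -166 from its start site (first base of the match), a match found in 1.79% of the 32851 promoter windows in the RefSeq table. The core ACGTCA, which that element contains on both strands, also occurs in Btg1 at -188, and in 7.51% of all windows. Btg1 has in addition the forkhead site, at -204 and present in 3.65% of windows. TATAAA lies at -26 in Btg1 and at -47 in Tob1, and is found in 13.6% of windows. CCAAT or its complement occurs 2 times in Btg2, 2 in Tob1 and 1 in Btg1, and at least once in 37.4% of windows. Tob2 holds none of these, and Tob1 holds neither the cyclic AMP response element, its core nor the forkhead site. The GC box GGGCGG occurs in all 4 windows and in 35.7% overall. The E-box CACGTG (7.15% of windows), the AP-1 site TGANTCA (7.81%) and the p53 decamer consensus (8.36%) had no match in the 4 windows, which says only that these letters are not in this stretch. The 4 windows were rich in G and C, from 58.0% in Tob2 to 75.3% in Tob1, against a median of 52.7%.

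Of the 9 nearest protein-coding neighbours found in the authors' deposited table, in the order of genes in RefSeq on GRCm38.p6, Tef and Wfikkn2 rose. Tef, a transcription factor of the circadian clock next to Tob2, stood at 2103, 2056 and 2127 normalised reads in ICRF-193 libraries A, B and C and 1248, 863 and 849 in DMSO libraries A, B and C. The authors' deposited table gives it a log2 fold change of 1.09 with an adjusted p of 7.64e-04, against 0.15 for Tob2 itself. Wfikkn2, which encodes a secreted protease inhibitor and lies next to Tob1, was low throughout. It had 19.1, 21.8 and 20.2 normalised reads in the ICRF-193 libraries and 5.57, 3.97 and 2.16 in the DMSO libraries (A, B and C), with an adjusted p of 0.0142 in the authors' deposited table. Chit1, next to Btg2, averaged 119 normalised reads after ICRF-193 and 44.3 after DMSO and did not pass in the authors' deposited table (adjusted p = 0.149). It was highest in library A of both groups, at 175 after ICRF-193 and 70.8 after DMSO. Fmod, on the other side of Btg2, is listed at 0 after ICRF-193 and 0.691 after DMSO. Spag9 next to Tob1, Eea1 next to Btg1, Phf5a next to Tob2, and Cxadr and D16Ertd472e on either side of Btg3 had log2 fold changes from -0.32 to 0.32 in the authors' deposited table without passing. Gm46240, next to Btg1, was not analysed here.

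The genes whose levels over the 6 libraries most resembled each member were found by the root mean square difference of centred log2(normalised reads + 1), among 11241 genes with a mean of at least 100 whose reads had a single solution. For Btg2 these were Sncg, which encodes gamma-synuclein, the ligand gene Wnt3 and Eng, which encodes the TGF-beta co-receptor endoglin, with differences of 0.0488, 0.0754 and 0.0907. Sncg averaged 248 normalised reads after ICRF-193 and 56.8 after DMSO, Wnt3 850.2 and 192, and Eng 4653 and 1177. For Tob1 they were Rab23, Gne and Sbk1, with differences of 0.0507 to 0.0661. For Btg1 they were Pfkfb4, Bbs7 and Hpcal4 (0.0290 to 0.0519), and for Tob2 Kpna4, Ippk and Prep (0.0256 to 0.0285). No member was among the nearest 3 genes of another.

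Of the genes with which BTG and TOB proteins act, Cpeb2 was the one called in the authors' deposited table. Of 45 genes listed as subunits of CCR4-NOT, poly(A)-binding proteins and other deadenylases, RNA-binding proteins that recruit them, further partners and upstream regulators, all had reads, and the authors' deposited table called 1 higher, 0 lower and 44 neither. The background in the same table is 5.97% higher and 1.26% lower. Without adjustment, 3 genes higher and 3 lower had a p under 0.05 there. The share of all genes under that unadjusted threshold was not worked out, so nothing is read from these counts, here or by list below. Limma-voom called 2 higher and 3 lower, against 9.85% and 5.91% of 14888 genes. With a term for the split of libraries A from B and C it called 9 higher and 15 lower of 43, against 27.1% and 32.4% of all genes. Cnot1 and Pabpc1, whose reads could not be worked back in full, were not in the limma-voom comparison. The median log2 fold change of the 45 was -0.08, against -0.10 over the 11868 genes with a mean of at least 100 normalised reads.

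Subunits of CCR4-NOT, the main cytoplasmic deadenylase, gave 0 calls among 11 in the authors' deposited table, with 1 lower before adjustment (p under 0.05) and 1 lower by limma-voom. Cnot7, one of the catalytic subunits that BTG and TOB proteins bind, stood at 3677, 4045 and 4034 normalised reads in the ICRF-193 libraries and 3921, 4282 and 4465 in the DMSO libraries (A, B and C), overlapping ranges. Cnot8, its close relative, averaged 3563 ± 159 after ICRF-193 and 3727 ± 386 after DMSO (SD, n = 3). The other catalytic subunits, Cnot6 and Cnot6l, had log2 fold changes of -0.27 and -0.15 in the authors' deposited table, and the scaffold Cnot1 had -0.41. Cnot3, called lower by limma-voom alone (adjusted p = 0.0205) and named after its values were seen, averaged 4249 ± 373 after ICRF-193 and 6457 ± 714 after DMSO (SD, n = 3).

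Of 6 genes for poly(A)-binding proteins and other deadenylases, 0 were called in either direction in the authors' deposited table, 0 before adjustment (p under 0.05) and 0 by limma-voom. Pabpc1, whose protein coats poly(A) tails and binds TOB proteins, was at 71534 normalised reads after ICRF-193 and 72131 after DMSO. Among 14 RNA-binding proteins that recruit deadenylases, Cpeb2, a translational regulator, was the single call in the authors' deposited table. It stood at 851, 752 and 608 normalised reads in ICRF-193 libraries A, B and C and 560.4, 281 and 247 in DMSO libraries A, B and C. The log2 fold change of Cpeb2 was 1.02 with an adjusted p of 0.0449 in the authors' deposited table, while limma-voom gave 0.0653, and DMSO library A came close to the lowest ICRF-193 library. Limma-voom instead called Nanos1 (adjusted p = 0.0231) and Nanos3 (0.0161) higher, both named after their values were seen.

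Of 9 further partners and targets, 0 were called in the authors' deposited table, with 1 lower before adjustment (p under 0.05) and 1 lower by limma-voom. Ccnd1, the gene of cyclin D1 that BTG and TOB proteins are known to repress, averaged 9762 ± 421 after ICRF-193 and 8089 ± 903 after DMSO (SD, n = 3), with an adjusted p of 0.658 in the authors' deposited table. Prmt1, the arginine methyltransferase that BTG1 and BTG2 bind, had a log2 fold change of -0.31 in the authors' deposited table. Chek1, a checkpoint kinase that BTG3 binds in human cells and that was named after its values were seen, was the gene called lower by limma-voom (adjusted p = 0.00804). It averaged 2108 ± 97.6 normalised reads after ICRF-193 and 3283 ± 116 after DMSO (SD, n = 3).

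Among 5 upstream regulators, 0 were called in the authors' deposited table, with 1 lower before adjustment (p under 0.05), and limma-voom called 1 lower, Mapk3 (adjusted p = 0.0323). Mapk3, a kinase known to phosphorylate TOB1 and named after its values were seen, averaged 3240.01 ± 287 after ICRF-193 and 4867 ± 626 after DMSO (SD, n = 3). The transcript of p53 itself, Trp53, had a log2 fold change of -0.08 with an adjusted p of 0.996 in the authors' deposited table, at 15391 normalised reads after ICRF-193 and 16270 after DMSO.

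**Figure D4:**
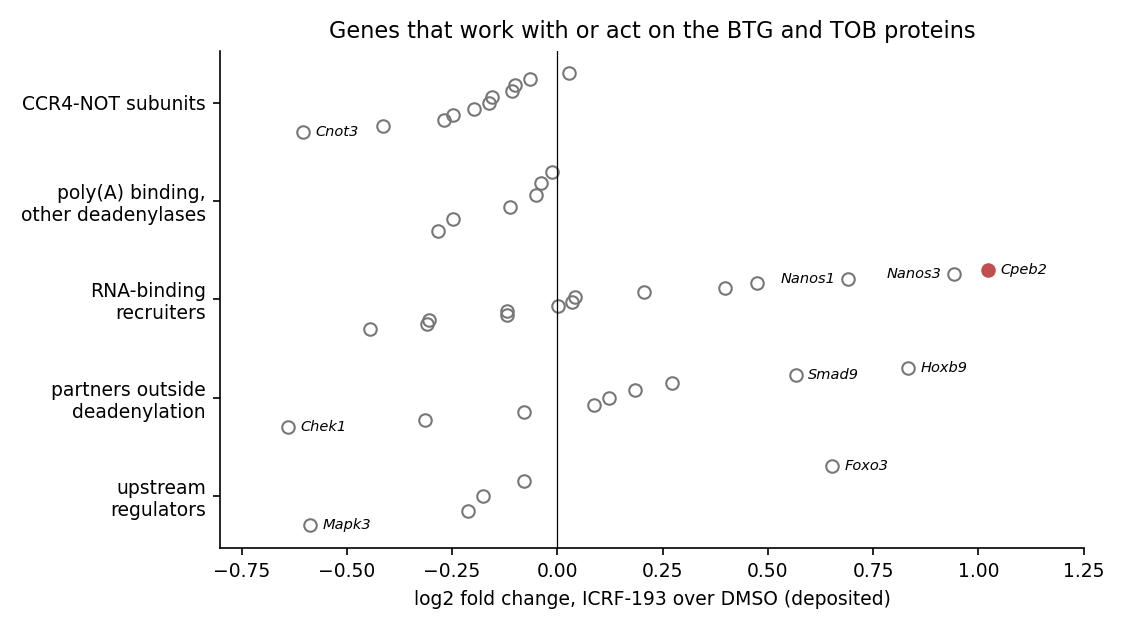
Log2 fold change of ICRF-193 over DMSO (horizontal axis) from the authors' deposited table for the 45 genes that work with or act on BTG and TOB proteins, by list (vertical axis); the filled red point passed the 0.05 threshold, and the genes farthest from 0 are named. Cpeb2 at 1.02 is the one filled point, and the CCR4-NOT subunits lie between -0.60 and 0.03.

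Btg2, Btg1 and Tob1 kept fold changes of similar size under each setting, whereas the log2 fold change of Tob2 was up to 0.29 under other scalings and the calls of Btg1, Tob1 and Tob2 depended on the setting. On the reads per library limma-voom called 3 of the 4 members that passed its filter, with log2 fold changes of 2.14 ± 0.158 for Btg2, 0.79 ± 0.117 for Tob1 and 0.70 ± 0.125 for Btg1 (estimate ± standard error), and 0.15 ± 0.0986 for Tob2. The same fit called 9.85% of all genes higher and 5.91% lower. With a term for the split of libraries A from B and C, limma-voom called all 4, Tob2 with an adjusted p of 0.0461, where 27.1% of 14888 genes were called higher and 32.4% lower. Leaving out both libraries A, limma-voom gave Btg2 a log2 fold change of 2.38 and Tob2 an adjusted p of 0.128. Btg1 no longer passed in limma-voom without ICRF-193 library B (adjusted p = 0.0626), ICRF-193 library C (0.0784), DMSO library B (0.0766) or DMSO library C (0.0631). Tob1 missed the threshold in limma-voom without ICRF-193 library B (adjusted p = 0.0505) or DMSO library B (0.0503). Fewer genes in all were called there: limma-voom called 2.71% higher and 0.615% lower without ICRF-193 library B, 3.15% and 0.847% without ICRF-193 library C, 3.33% and 0.83% without DMSO library B, and 4.21% and 1.41% without DMSO library C. It called 8.37% higher and 3.88% lower without ICRF-193 library A and 11.8% and 9.36% without DMSO library A, with Btg2, Btg1 and Tob1 passing in both. The shares were 24.1% and 29.6% without both libraries A and 12.1% and 3.08% with total read scaling. Btg2 passed in limma-voom under each of these settings, with adjusted p from 2.04e-08 to 0.0199.

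**Figure D5:**
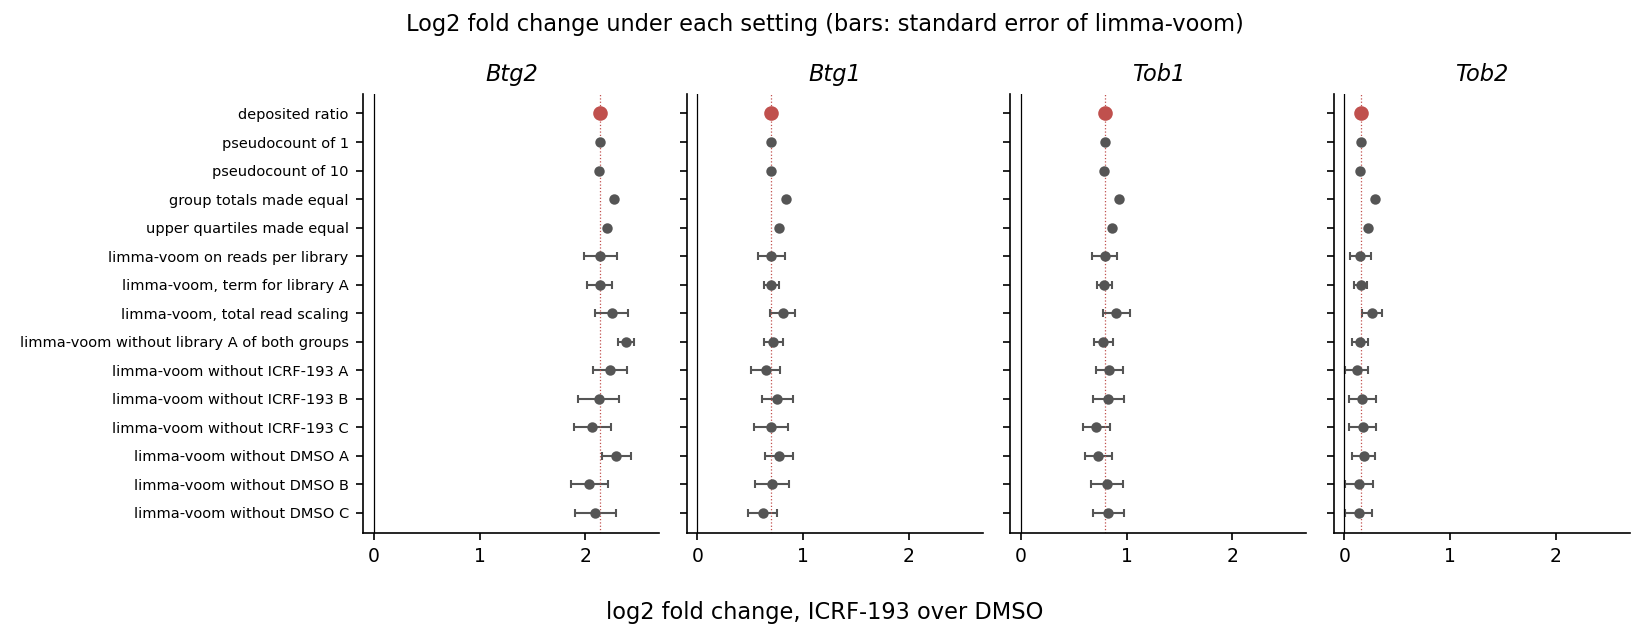
Log2 fold change of ICRF-193 over DMSO (horizontal axes) of Btg2, Btg1, Tob1 and Tob2 under each setting (rows); the red point is the deposited ratio and the bars are standard errors of limma-voom. Btg2 stays between 2.04 and 2.38 and the order of the 4 genes is led by Btg2 in every row, while Tob2 stays between 0.11 and 0.29.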

How the data were processed

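Per the submitters' processing notes, the authors used TopHat, HTSeq and DESeq with the mouse build mm9; versions, annotation, settings and strand are not given in the sources used here. Each group column of the deposited file is a signal: the authors' mean over libraries of reads scaled by size factors. The deposited fold change is a ratio of these means, the deposited log2 column its log2 without shrinkage, and the p-values, deposited raw and Benjamini-Hochberg adjusted, come from the authors' test.

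The deposited test is the main test. Since means are printed to 15 digits, whole reads per library were worked back from combinations of 3 whole numbers. All combinations were searched up to a mean of 12000 normalised reads, and only those in a window around the mean from there to 100000. A single solution was found for 18132 genes (96.7%), all 5 members among them. A further 488 were resolved by a posterior of at least 0.99, which rests on the spread between libraries in other genes, and 139 were unresolved. In data simulated from the DMSO libraries alone, 5721 of 5721 single and 370 of 371 posterior solutions were exact. As an alternative, limma-voom (R 4.3.3, limma 3.58.1) was run with the recovered size factors, keeping genes that reached 10 reads in 3 libraries or more. Transcript copies were searched with BLAST 2.17.0 against GENCODE M21, whose build GRCm38 is not that of the reads, so the members' gene coordinates are not given. The members and lists were chosen with earlier results of these data known, and so were the promoter motifs. Named were all members and Btg4, called partner genes, fixed core partners, nearest neighbours and the 3 genes most like each member; exceptions are marked. The counting coefficients of variation cover counting error only.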

Additional observations from a re-analysis of the deposited data

How the results depend on the processing

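The log2 fold changes of Btg2, Btg1 and Tob1 kept their direction under all 14 alternatives run. They moved by less than the larger group SD of log2 reads between libraries (0.261 for Btg2, 0.154 for Btg1 and 0.140 for Tob1). Each moved by more than the smaller group SD (0.166, 0.110 and 0.0990) under at least 1 alternative. The log2 fold change of Tob2, 0.15 in the main result, was 0.29 with equal group totals (a shift of 0.13 for every gene), 0.22 with equal upper quartiles and 0.26 in limma-voom with total read scaling. The number of members called higher, 2 (5.97% of all genes), became 4 with the split term (27.1%). It ranged from 1 to 3 when single libraries were left out (2.71% to 11.8%). At an adjusted p under 0.01 it became 1, for which the share of all genes was not worked out. Of the partner genes, 1 was called higher and 0 lower (5.97% and 1.26% of all genes). At 0.01, 0 were called higher, and at 0.1, 3 higher and 1 lower. After adjustment over genes with a mean of at least 10, 2 were called higher. For these changed thresholds the share of all genes was not worked out, so nothing is read from the counts. Limma-voom called 2 higher and 3 lower (9.85% and 5.91% of all genes), and with the split term 9 and 15 (27.1% and 32.4%). Without both libraries A it called 10 and 15 (24.1% and 29.6%), and with total read scaling 3 and 2 (12.1% and 3.08%). With single libraries left out it called 0 to 3 higher and 0 to 3 lower (2.71% to 11.8% and 0.615% to 9.36% of all genes). The causes were not tested. No paired analysis was possible because the columns carry no replicate numbers. The split term treats the libraries A of both groups as alike, although their letter rests on size factor alone, so calls with it depend on that choice. Btg3 and Btg4 gave too few reads for any comparison. The level of Btg3 is uncertain, since it is not known how reads matching both Btg3 and its partial copy were counted.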
